A study of Mus musculus with 9 samples.

Results

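Transcript levels of the 4 oogenesin genes, Oog1 to Oog4, and of Gm3106 and Gm16427 on chromosome 5 were followed in XX, XO and XY mouse oocytes. These 6 genes were picked by name among the 28051 genes of the deposited normalized matrix, and all 6 had transcripts in every pool. Gm3106 and Gm16427 were taken because their levels were low in XY oocytes, so their difference between XY and the other genotypes is given below as a description and was not tested. The 9 pools, 3 per genotype, each held 30 growing oocytes of 50–60 µm in diameter, freed from ovaries at 18 dpp of mice labelled C57BL/6. XY oocytes came from sex-reversed B6.Y TIR females, in which a domestic mouse Y chromosome is carried on the C57BL/6 background, and XX oocytes from their littermates. XO oocytes came from daughters of Paf carrier males, a line moved from C3H/HeSnJ to C57BL/6 by backcrossing. The cross therefore cannot be told apart from the number of X chromosomes in XX against XO, or from the Y chromosome in XY against XO. Pools were biological triplicates, and whether a pool held oocytes of 1 or several females is not given in the sources used here.

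Oogenesins are proteins with leucine-rich repeats that belong to the PRAME family, named after an antigen preferentially expressed in melanoma. The family has expanded in the mouse into clusters of similar gene copies, many of which are transcribed in germ cells. Oogenesin transcripts are typical of the oocyte and early embryo, and the Oog1 protein has been described as a partner of Ras and of the Ral exchange factor RalGDS. The RefSeq names of Gm3106 and Gm16427 are Pramel38 and Pramel33, which place both genes in the same family.

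RNA was read by Smart-seq3, in which a unique molecular identifier (UMI) marks the 5′ end of each transcript and PCR copies are counted once. Since transcript ends are counted, the length of a transcript does not enter its level, and levels of different genes can be set side by side. Levels are given as normalized CPM, the unit (CPM) of the deposited matrix. In it the UMIs of a gene are taken relative to all gene UMIs of the pool and divided by 1 factor per pool. These factors match those computed from the composition of the ERCC spike-in RNAs alone. The amount of spike-in in a pool does not enter them, so levels are not amounts per oocyte. Pools had 2130145–3157338 gene UMIs, and spike-ins were 0.204–0.862% of all UMIs. Of 12 oocyte markers, 11 reached a mean of 10 normalized CPM, with a summed level of 27538–29064 over XX pools, 18926–39013 over XO pools and 20176–27198 over XY pools. The 10 granulosa cell markers summed to 11.9–56.4 normalized CPM, and 4 of them, Amh, Foxl2, Inhbb and Hsd17b1, were not in the normalized matrix. The 7 markers of theca and stroma summed to at most 8.55 and the 5 of blood to at most 1.69, whereas the 3 endothelial markers reached 132 in an XO pool and 50.6 and 59.2 at most in XX and XY pools, and Pecam1 alone had a mean of 51.5. Their part in the results below was not tested.

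The 6 genes lie on 3 chromosomes (GRCm38, with the same gene coordinates in Gencode vM21), and all are annotated as protein coding. Oog4 (chr4:143437164-143450324, minus strand), Oog3 (chr4:144157557-144162663, minus strand) and Oog2 (chr4:144190719-144196934, plus strand) are on chromosome 4, and Oog1 (chr12:87602688-87608850, plus strand) is on chromosome 12. Gm16427 (chr5:93481829-93540200, minus strand) and Gm3106 (chr5:94218005-94222010, plus strand) are on chromosome 5. The longest coding transcripts were 2451 bases with 3 exons for Oog1, 1917 with 5 for Oog2, 1865 with 4 for Oog3, 1981 with 5 for Oog4, 2383 with 3 for Gm3106 and 2042 with 4 for Gm16427.

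The 100 bases upstream of the RefSeq start of each gene (GRCm38.p6, read along the strand of the gene) are shown because the 4 oogenesins, 3 on chromosome 4 and 1 on chromosome 12, share a word there. Capitals mark the longest word common to the 4 upstream regions, TTCAGCTGAAA, which contains the E-box CAGCTG.
Oog1: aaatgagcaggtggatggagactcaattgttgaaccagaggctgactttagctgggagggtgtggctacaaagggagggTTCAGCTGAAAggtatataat
Oog2: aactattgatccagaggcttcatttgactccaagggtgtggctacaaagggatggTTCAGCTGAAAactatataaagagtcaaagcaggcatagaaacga
Oog3: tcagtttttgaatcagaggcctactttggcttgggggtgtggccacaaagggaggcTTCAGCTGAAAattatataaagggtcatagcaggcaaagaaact
Oog4: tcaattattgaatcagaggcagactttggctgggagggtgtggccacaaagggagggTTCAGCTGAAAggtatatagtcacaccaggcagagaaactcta
These windows are chr12:87602565-87602664, chr4:144190617-144190716, chr4:144162652-144162751 and chr4:143450325-143450424. The word began 21 bases before the start of Oog1, 45 before that of Oog2, 44 before that of Oog3 and 43 before that of Oog4. It was chosen from these sequences. On either strand it occurred within 250 bases upstream of 13 genes, or in 0.0426% of 32851 promoters, and besides the oogenesins these included Gm2042, the PRAME family genes Gm13084, Gm13089 and C87499, and Kcnj13, a potassium channel gene.

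For Gm3106 and Gm16427 the capitals mark the longest word shared by the pair.
Gm3106: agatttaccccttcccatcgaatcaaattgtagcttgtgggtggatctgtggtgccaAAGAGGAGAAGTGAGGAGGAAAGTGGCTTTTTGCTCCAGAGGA
Gm16427: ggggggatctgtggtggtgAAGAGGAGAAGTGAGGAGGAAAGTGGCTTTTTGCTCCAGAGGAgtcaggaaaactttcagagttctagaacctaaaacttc
These windows are chr5:94160302-94160401 and chr5:93536332-93536431, and the shared word had 43 bases. The RefSeq start of Gm3106, 94160402, lies upstream of the deposited start of the gene, and that of Gm16427, 93536331, lies within the deposited gene, so both windows belong to the RefSeq models. Where the sequences could be aligned, the upstream regions of the oogenesins were 79.6–92.3% identical to each other, those of the chromosome 5 pair 93.5%, and oogenesin and chromosome 5 regions 57.6–67.5%.

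Motifs of factors known from oocytes were looked for in the 250 bases upstream on both strands. CANNTG, the E-box bound by basic helix-loop-helix proteins such as FIGLA, was found in all 6 regions, with 1–4 matches each, and in 66.2% of all promoters. TAATTG, a homeodomain motif of the kind bound by NOBOX, was found upstream of Oog3, Oog4, Gm3106 and Gm16427 and in 7.17% of promoters, and TAATTA in none of the 6 regions and 4.84% of promoters. TATAAA began 30 bases upstream of Oog2 and 29 bases upstream of Oog3, and occurred in 12.4% of promoters. The CAGCTG within the shared word is itself a CANNTG match. Such matches describe the sequence only.

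Near identical copies decide how far UMIs can be given to a single gene, and the members differed in this. When transcripts were divided into words of 100 bases, every word of Oog4 was found in Oog4 alone, as were 89.2% of the words of Oog3 and 83.9% of those of Oog2. Oog1 had 22.0% of its words to itself. It shared 77.3% with Gm2042, its neighbour on chromosome 12, including 100% of the words in its first 300 bases, and 30.0% with Gm10436. Between the oogenesins, the longest coding transcripts were 75.4–80.8% identical over the aligned bases. Gm3106 and Gm16427 were 99.5% identical over 1903 aligned bases, and 28.5% and 20.4% of their words were found in no other gene. In the first 300 bases of the longest coding transcripts, this pair shared 4.48% of words. The RefSeq starts of both genes differ from those of these transcripts, and whether 5′ UMIs arose in these 300 bases was not tested. How UMIs of shared sequence were divided between copies by the counting of the authors is not given in the sources used here, so levels of Oog1, Gm3106 and Gm16427 alone are uncertain, and sums are given as well.

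Oogenesins were among the most abundant transcripts of these oocytes, and no difference between genotypes exceeded the spread between pools. Over the 9 pools, the mean was 3907 normalized CPM for Oog4, 3295 for Oog3, 1525 for Oog1 and 1426 for Oog2, and the genes ranked 33, 46, 93 and 105 among 28051. The SD over the 9 pools was 1656 for Oog4, 1383 for Oog3, 1007 for Oog1 and 739 for Oog2. Since the genes were measured in the same pools and varied together, these SDs do not measure the spread of a difference between genes, and no such difference was tested. Together the 4 genes made up 1.16 ± 0.208% of the gene UMIs of XX oocytes, 0.913 ± 0.654% of those of XO and 0.989 ± 0.435% of those of XY oocytes (SD, n = 3 each).

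Oog4, the most abundant, had 3886, 4139 and 2685 normalized CPM in XX pools 1 to 3, 7408, 2620 and 2955 in XO pools and 5643, 3451 and 2374 in XY pools. Pools XO1 and XY1 were the highest of all, and the remaining pools of the 3 genotypes overlapped. Its log2 fold change was −0.28 ± 0.55 (SE) for XX against XO, −0.10 ± 0.55 for XX against XY and −0.18 ± 0.55 for XY against XO, with edgeR p-values of 0.623, 0.860 and 0.750.

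Oog3 had 3872, 4272 and 2759 normalized CPM in XX pools, 5189, 3175 and 1268 in XO pools and 4945, 2528 and 1648 in XY pools. Here too XO1 and XY1 were highest, but XO3 was the lowest of the 9 pools, and the genotypes overlapped. The log2 fold change of Oog3 was 0.18 ± 0.60 for XX against XO, 0.26 ± 0.60 for XX against XY and −0.08 ± 0.60 for XY against XO, with edgeR p-values of 0.772, 0.677 and 0.898.

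Oog2, the neighbour of Oog3 on the opposite strand, had 1558, 1531 and 1026 normalized CPM in XX pools, 3138, 1065 and 863 in XO pools and 1859, 1065 and 731 in XY pools. XO1 and XY1 were again highest and XY3 was lowest. The log2 fold change of Oog2 was −0.30 ± 0.57 for XX against XO, 0.17 ± 0.57 for XX against XY and −0.47 ± 0.57 for XY against XO, with edgeR p-values of 0.609, 0.770 and 0.428.

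Oog1, the gene of chromosome 12, had 1455, 1579 and 1047 normalized CPM in XX pools, 4035, 923 and 946 in XO pools and 1878, 1074 and 784 in XY pools. The level in XO1 stood far above the other 8 pools, and XO2 and XO3 were below all XX pools. The log2 fold change of Oog1 was −0.53 ± 0.63 for XX against XO, 0.13 ± 0.62 for XX against XY and −0.66 ± 0.63 for XY against XO, with edgeR p-values of 0.416, 0.842 and 0.318. Summed with Gm2042 and Gm10436, which share its sequence, Oog1 had a mean of 12030 ± 2646 normalized CPM for XX pools, 15835 ± 13505 for XO pools and 10672 ± 5179 for XY pools (SD, n = 3), and XO1 was again the highest pool.

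**Figure D1:**
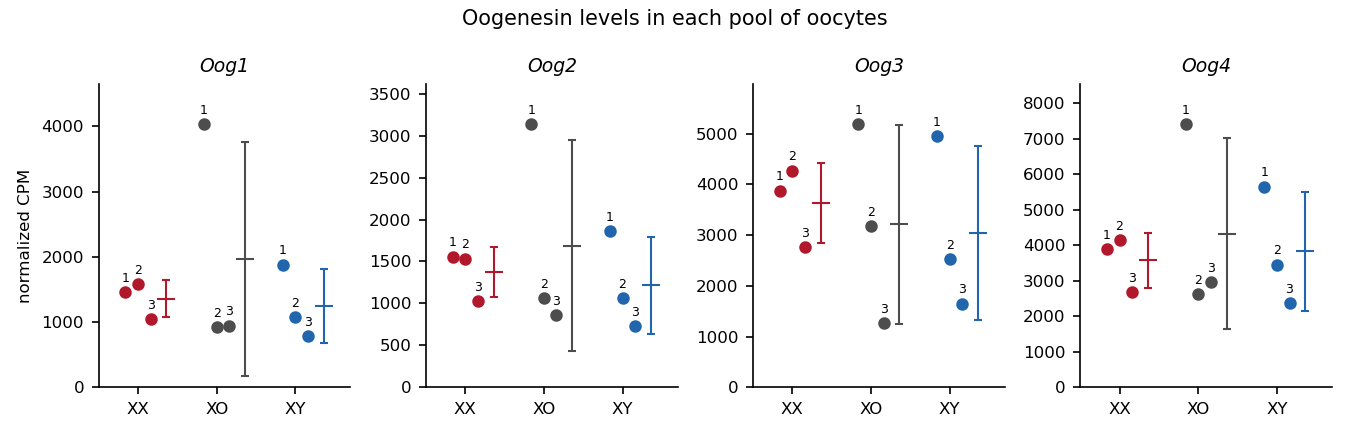
Normalized CPM (y axis, from 0) of Oog1 to Oog4 in XX, XO and XY pools, where each point is a pool of 30 oocytes with its replicate number and the bar beside the points is the mean with SD (n = 3). Pool XO1 is highest in all 4 panels and pool XY1 follows, whereas the other pools of the 3 genotypes overlap.

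Of the 4 oogenesins, 0 were called in any of the 3 comparisons, where a call was an unadjusted p below 0.05 in edgeR's quasi-likelihood test. All 6 genes studied here passed the filter on low counts. Among the 10993 genes tested, 18.1% were called for XX against XO, 5.80% for XX against XY and 9.93% for XY against XO. Adjusted p-values of the 4 genes were between 0.648 and 1 over the 3 comparisons. The 95% intervals spanned −2.07 to 1.60 on the log2 scale, and 7 of the 12 reached beyond a log2 change of 1 in both directions. DESeq2 with the same factors called 0 of the 4 as well, where it called 21.2%, 6.32% and 12.0% of all genes. When 2 surrogate variables were added in limma-voom, close to the authors' own model, Oog1 and Oog2 were called higher in XX than in XY (log2 0.30 and 0.31, p = 0.027 and 0.031) and lower in XY than in XO (log2 −0.62 and −0.57, p = 1.3e-04 and 7.2e-04), and this model called 20.5% and 19.0% of all genes. In a fit with a block for replicate numbers, which groups pools of the same number across the 3 genotypes, 16.6% of genes were called for XY against XO, and still 0 of the 4 oogenesins.

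**Figure D2:**
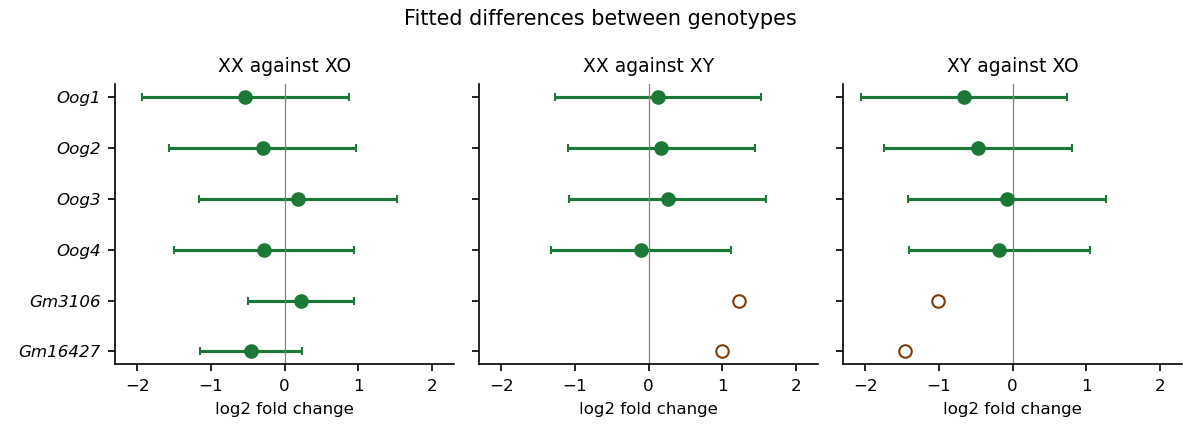
Log2 fold change (x axis) of each gene in the 3 comparisons, positive where the first genotype is higher. Filled points carry 95% confidence intervals from edgeR, all of which cross 0, and open points are the values of Gm3106 and Gm16427 in comparisons with XY, on which they were chosen, without intervals.

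The direction of these differences rested on single pools. XO1 was 4.32 times the mean of XO2 and XO3 for Oog1, 3.26 times for Oog2, 2.34 times for Oog3 and 2.66 times for Oog4. The median ratio was 0.787 over the 7276 genes whose mean level reached 10 normalized CPM, and 1.87 over the other PRAME genes at that level. Among the 7276 genes, the ratios of Oog1 to Oog4 were at percentiles 98.5, 94.7, 86.8 and 90.2. XY1 was 1.94–2.37 times the mean of XY2 and XY3 for the 4 genes, against a median of 1.01. Without XO1, the log2 fold changes of XX against XO became 0.59, 0.57, 0.79 and 0.41 for Oog1 to Oog4, and those of XY against XO became 0.47, 0.40, 0.53 and 0.51. Without XO1, only the direction of Oog3 for XX against XO stayed, and it turned without XO3 (−0.20). Without XY1, log2 fold changes of XX against XY became 0.55, 0.61, 0.80 and 0.29, which turned that of Oog4. Those of Oog1 to Oog3 turned without XY3, to −0.11, −0.08 and −0.03. In none of these fits was an oogenesin called. Without XO1, 4073 of 11590 genes were called for XX against XO and 3470 for XY against XO. For XX against XO, 1059 of 11371 were called without XO3. For XX against XY, 498 of 11541 were called without XY1 and 497 of 11503 without XY3.

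The scaling mattered as well. With the spike-in factors, the median log2 fold change of all tested genes was −0.46 for XX against XO, −0.19 for XX against XY and −0.30 for XY against XO, and with gene totals alone it was 0.10, −0.05 and 0.13. Of the genes called for XX against XO, 92.2% were lower in XX with the spike-in factors, 64.2% with TMM factors of the genes and 29.9% with gene totals. The corresponding shares that were lower in the first genotype were 75.7%, 48.1% and 54.6% for XX against XY and 83.0%, 63.1% and 17.6% for XY against XO. The summed level of Oog1 to Oog4 averaged 9936 ± 2128 normalized CPM over XX pools, 11195 ± 7477 over XO pools and 9327 ± 4516 over XY pools (SD, n = 3). Its log2 ratio of XX to XO was −0.17 with the spike-in factors and 0.35 with gene totals, and that of XX to XY 0.09 and 0.24. The sum over all 6 genes was 10116 ± 2084, 11377 ± 7424 and 9408 ± 4514 in XX, XO and XY oocytes, and the oogenesins made up nearly all of it.

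In the deposited matrix of log2 values from which the authors had regressed out batch effects, the genotypes overlapped less for some of the oogenesins. Oog1 was at 10.32–10.48 in XX, 10.57–10.82 in XO and 9.98–10.15 in XY pools, and the 3 genotypes did not overlap. Oog2 was at 10.41–10.46 in XX and 9.84–10.22 in XY pools, and XO pools (10.45–10.67) overlapped XX. Oog3 was at 11.79–11.90 in XX and 11.01–11.65 in XY pools, and XO pools (11.04–12.22) overlapped both. Oog4 overlapped between all genotypes, at 11.81–11.91 in XX, 11.83–12.10 in XO and 11.50–11.93 in XY pools. Since batch effects had been taken out, the spread of these values is less than that between pools, and they were not tested. The share of all genes whose genotypes were separate in this matrix was not determined, so the separation of Oog1 cannot be called particular to it.

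Levels of the 4 genes moved together from pool to pool, with an exception in XO oocytes. Over the 9 pools, Pearson coefficients of log2(normalized CPM + 1) were 0.98 for Oog1 with Oog2, 0.96 for Oog1 with Oog4 and 0.96 for Oog2 with Oog4, and between 0.76 and 0.87 for pairs with Oog3. The ratio of Oog3 to Oog2 UMIs, which needs no scaling between pools, was 2.49, 2.79 and 2.69 in XX and 2.66, 2.37 and 2.25 in XY pools, but 1.65, 2.98 and 1.47 in XO pools. Thus Oog3 was low relative to its neighbour in XO1 and XO3 and not in XO2. The ratio of Oog1 to Gm2042 UMIs varied between 0.151 and 0.179 over all pools.

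The most abundant of the other genes of the family were highest in the same pool. By highest mean level, the 5 other genes marked as PRAME by name were Gm13084, C87977, Gm13023 and Gm13103 on chromosome 4 and Gm10436 on chromosome 12. Gm2042 (mean 9382) shares 77.3% of the words of Oog1. It has no such name and is left out here and in the counts of family genes below. Gm13084, of which Oog2 shares 16.1% of its words, had 8985, 10277 and 5995 normalized CPM in XX pools, 20610, 4930 and 4633 in XO pools and 11815, 6922 and 3932 in XY pools, and was thus more abundant than any oogenesin. The mean was 3570 for C87977, 2930 for Gm13023, 2798 for Gm13103 and 1939 for Gm10436, and XO1 was the highest pool of each. Of the 16 other PRAME genes at 10 normalized CPM or more, 8 were highest in XO1, as were 27.5% of all genes at that level. Others ran the opposite way, such as Pramef12, with 106 normalized CPM in XO1 and 432 and 482 in XO2 and XO3, and D5Ertd577e, with 118, 392 and 324.

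**Figure D3:**
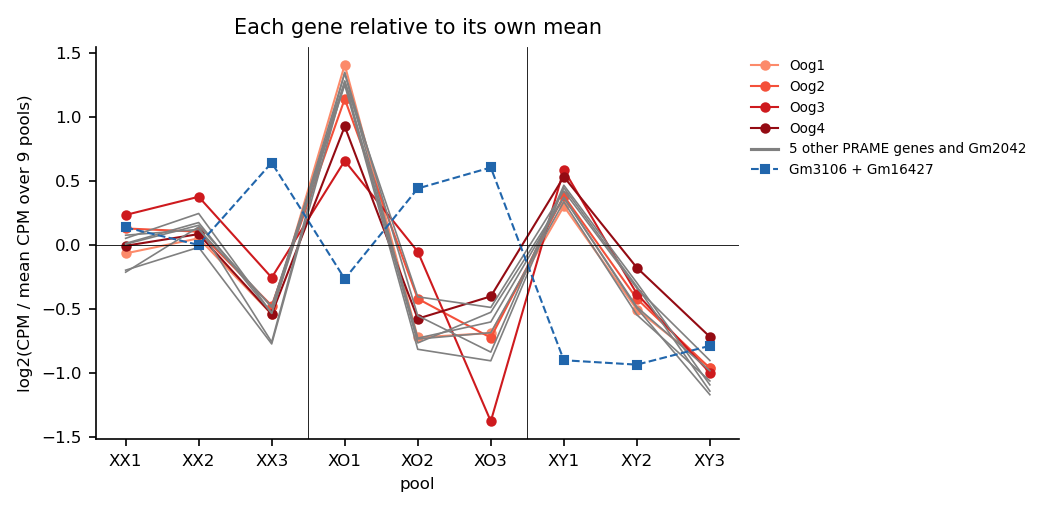
Log2 ratio of the level in each pool to the mean of the gene over the 9 pools (y axis) for Oog1 to Oog4 (red), the 5 other PRAME genes of highest level and Gm2042 (grey) and the sum of Gm3106 and Gm16427 (blue, dashed). The red and grey lines peak in XO1 and again in XY1, with Oog3 lower than the rest in XO3, and the blue line is lowest in the 3 XY pools.

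Gene symbols of the files or RefSeq names mark 43 further genes as members of the PRAME family, 24 of them on chromosome 4 and 16 on chromosome 5, and 19 of the 43 passed the filter on low counts. Of these 19, 1 was called for XX against XO, the chromosome 4 gene Gm13088, which was lower in XX. For XX against XY, Gm3139 and Gm7792 were called higher and Gm6502 lower in XX, and for XY against XO, Gm13088, Gm3139 and Gm7792 were called lower in XY. Gm3139 and Gm7792 share words with Gm3106, which was chosen for low XY levels, so their calls may not be independent of that choice. Over all tested genes, the shares called were 18.1%, 5.80% and 9.93%. No adjusted p-value of the 19 was below 0.05. The median log2 fold change of the 19 was −0.37, −0.03 and −0.55 in the 3 comparisons, beside −0.46, −0.19 and −0.30 for all genes tested. Gm13088 had 2021 normalized CPM in XO1 and 31.1–53.9 in the other 8 pools, so its calls rest on a single pool.

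Neighbours of the oogenesins other than the named family genes and Gm2042 varied in their patterns over the pools. On chromosome 12, within 1 Mb of Oog1, the most abundant after Gm2042 (mean 9382) and Gm10436 were Gm10095, Snw1, a splicing and transcription cofactor, and Slirp, a mitochondrial RNA-binding protein. Gm10095 was lowest in XO1 (470) among pools of 470–1280 normalized CPM. Snw1 (315–637) and Slirp (66.4–151) were highest in XY1 and, within XO oocytes, in XO1, as the oogenesins were within these genotypes. Of 17 tested neighbours on chromosome 12, 2 were called for XX against XO (Ahsa1 and Gm2099), 2 for XX against XY (Gm2099 and Sptlc2) and 1 for XY against XO (Sptlc2), genes named here after their values were seen. Around the chromosome 4 oogenesins, 3, 0 and 3 of 20 tested neighbours, family members included, were called. They were Dhrs3, Gm13088 and Vps13d in both comparisons with XO, and all 3 were higher in XO. Beside both lists stand the 18.1%, 5.80% and 9.93% called of all tested genes.

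Gm3106 and Gm16427 were transcribed at a lower level than the oogenesins and showed another pattern. Their mean over the 9 pools was 95.6 and 51.9 normalized CPM, ranks 1490 and 2569 of 28051, and the 3 XY pools, for which they had been chosen, were the lowest. Between XX and XO oocytes the genotypes overlapped.

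Gm3106 had 108, 98.7 and 171 normalized CPM in XX pools, 76.1, 110 and 137 in XO pools and 53.0, 54.0 and 53.4 in XY pools, from 114–560 UMIs per pool. All XY pools were below the other 6, and XX and XO pools overlapped. The mean was 126 ± 39.2 over XX pools, 108 ± 30.6 over XO pools and 53.5 ± 0.529 over XY pools (SD, n = 3), so XX was 2.35 times XY. Gm16427 had 54.5, 48.7 and 59.4 in XX pools, 46.6, 90.0 and 86.9 in XO pools and 26.0, 23.1 and 32.0 in XY pools, from 56–195 UMIs per pool. Again the XY pools were below all others, with means of 54.2 ± 5.38, 74.5 ± 24.2 and 27.0 ± 4.53 in XX, XO and XY oocytes.

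As a description, the log2 fold change of XX against XY was 1.23 for Gm3106 and 1.00 for Gm16427, and that of XY against XO was −1.01 and −1.46. Over the 17 alternatives, the former lay between 0.93 and 1.43 for Gm3106 and between 0.88 and 1.19 for Gm16427, and the latter between −1.14 and −0.56 and between −1.63 and −1.02. The alternatives used the same pools on which the pair was chosen, so these ranges are no check of the difference. Summed, the pair averaged 180 ± 44.1 normalized CPM over XX pools, 182 ± 53.0 over XO pools and 80.5 ± 4.34 over XY pools (SD, n = 3). The share of gene UMIs, which does not use spike-ins, was 0.0214 ± 0.0063% for XX, 0.0143 ± 0.0036% for XO and 0.0086 ± 0.0006% for XY oocytes.

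The comparison of XX with XO was not used in the choice of the pair and could be tested. The log2 fold change was 0.22 ± 0.32 for Gm3106 and −0.46 ± 0.31 for Gm16427, with edgeR p-values of 0.505 and 0.170 and adjusted values of 0.715 and 0.424, and 0 of the pair were called by edgeR, DESeq2 or limma. Pool XO1 decided the call of Gm16427, whose log2 fold change was −0.66 with an edgeR p-value of 0.026 once that pool was left out, when 35.1% of all genes were called. With gene totals alone in place of spike-in factors, Gm3106 was called higher in XX (log2 0.83, edgeR p-value of 0.027), as were 12.8% of all genes in either direction, and the log2 ratio of the sum moved from −0.02 to 0.58. In the batch-regressed values, Gm3106 was at 6.98–7.70 in XX, 6.18–6.30 in XO and 5.74–6.06 in XY pools. Gm16427 was at 5.99–6.18 and 5.45–5.93 in XX and XO pools and lower in the XY pools, from 4.86.

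**Figure D4:**
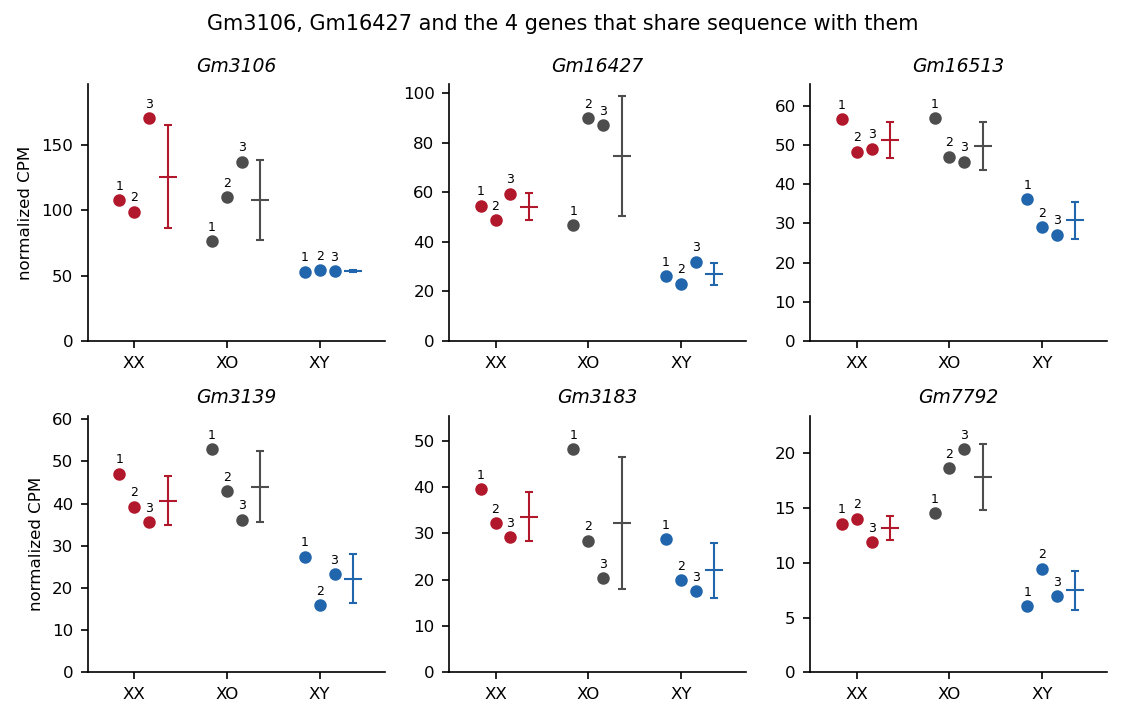
Normalized CPM (y axis, from 0) of Gm3106, Gm16427 and the 4 genes that share at least 50% of the 100-base words of Gm3106, by genotype. Points are pools with their replicate numbers, bars are means with SD (n = 3), and the XY pools lie below all XX pools in each panel.

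Genes that share much of their sequence with this pair were also lower in XY than in XX pools, by a smaller ratio of means. Gm16513, Gm3183, Gm7792 and Gm3139, all on chromosome 5, share 63.2%, 60.1%, 57.2% and 52.8% of the words of Gm3106. Gm16513 had 56.6, 48.3 and 49.0 normalized CPM in XX pools, 57.0, 47.0 and 45.7 in XO pools and 36.3, 29.0 and 27.2 in XY pools. Gm3139 averaged 40.6 ± 5.82 over XX pools, 44.0 ± 8.39 over XO pools and 22.2 ± 5.81 over XY pools (SD, n = 3). In all 4 genes the XY pools were below every XX pool, which was so for 3.99% of the 7276 genes at 10 normalized CPM or more. In 3 of the 4 they were also below every XO pool, as in 0.825% of the 7276. Gm3183 was the exception, with 20.3 in XO3 and up to 28.8 in XY pools.

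Along this stretch of chromosome 5, genes that share words with Gm3106 had higher ratios of XX to XY than genes without. This was observed after the values had been seen, and the ratio did not rise steadily with the share of words. Besides the pair, 21 genes lie within 1 Mb of the 6 similar copies and reached a mean level of 10 normalized CPM. The 4 genes with more than 50% of the words of Gm3106 had a log2 ratio of XX to XY of 0.61–0.87. A further 3, Gm3286, E330014E10Rik and D5Ertd577e, share at most 11.1% of its words and had ratios of 0.69–0.76. In 2 of these 3 the XY pools were below every XX pool, but in 0 of 3 below every XX and XO pool, and E330014E10Rik had 852 normalized CPM in XY3 and 785 in XX2. The 14 genes without a shared word had ratios of −0.66 to 0.23. The log2 ratio of XO to XY was 0.55–1.25 for the 4 genes, 0.66–0.82 for the 3 and −0.71 to 0.84 for the 14, so there the classes overlapped. In the first 300 bases of the longest coding transcripts of the pair, Gm3183 and Gm3139 share 73.6% each of the words of Gm16427. Of those of Gm3106, Gm3139 shares 50.2% and Gm16513 and Gm3183 share 32.3% each. Whether UMIs arose in these bases was not tested. The pair shares 4.48% there, Gm7792 2.99% with Gm3106 and 6.47% with Gm16427, and Gm3286, E330014E10Rik and D5Ertd577e 0% with either. How UMIs of these copies were divided in counting, and whether each gene was low apart from shared UMIs, was not tested.

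**Figure D5:**
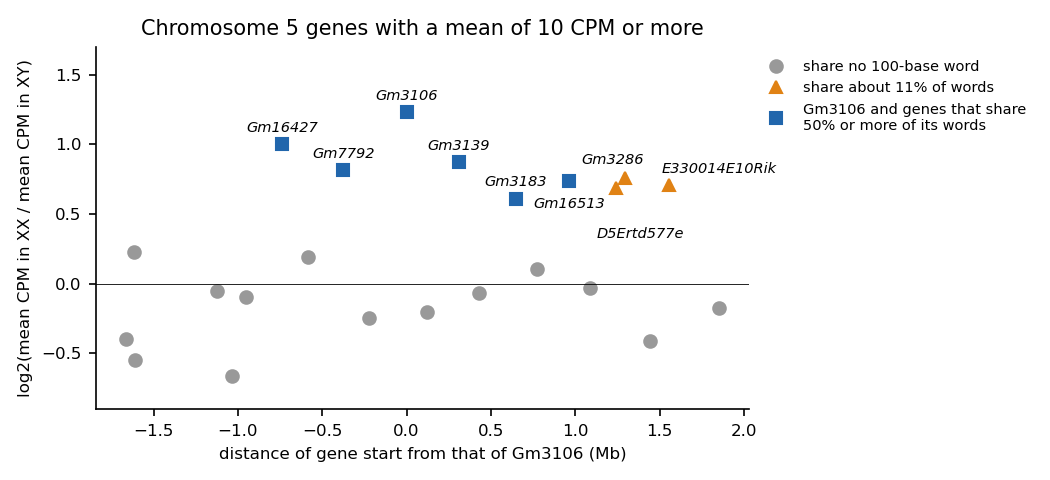
Log2 ratio of the mean level in XX to that in XY oocytes (y axis) for chromosome 5 genes against the distance of their start from that of Gm3106 in Mb (x axis). Squares, Gm3106 and the 5 genes that share at least 50% of its 100-base words, lie at 0.61 or above, triangles, 3 genes that share at most 11.1%, lie at 0.69–0.76, and circles, 14 genes that share none, lie at 0.23 or below.

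The 5 most abundant neighbours within 1 Mb of Gm3106 or Gm16427 had patterns unlike that of the pair. By mean level, these were C87414 (Pramel34), AA792892, Gm6367, Gm6205 and Fam47e. The wider stretch described above also held E330014E10Rik (mean 847) and Gm3259 (748), with log2 ratios of XX to XY of 0.71 and −0.03. C87414 had 1040, 1239 and 711 normalized CPM in XX pools, 1039, 549 and 469 in XO pools and 1245, 785 and 588 in XY pools, with the first pool highest in XO and XY. AA792892, Gm6367 and Gm6205 had the same first pools highest, whereas Fam47e was lowest in XO1 (11.4) and highest in XO3 (186). None of the 5 was called by edgeR in any comparison. Of 18 tested neighbours of the pair, 1 was called for XX against XO, Ccni, lower in XX. For XX against XY 5 were called, of which Gm16513, Gm3139 and Gm7792 were higher and Ccni and Gm6502 lower in XX. For XY against XO 3 were called, Gm16513, Gm3139 and Gm7792, all lower in XY. These 3 are copies described above that share words with Gm3106. Since Gm3106 was chosen for low XY levels, their calls in comparisons with XY may not be independent of that choice. Of all tested genes, 18.1%, 5.80% and 9.93% were called.

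Among the 7270 genes at 10 normalized CPM or more, those whose pattern over the 9 pools was most like the sum of Oog1 to Oog4 were Gm13084 (Pearson r = 0.99), Gm7240 (0.98), Gm5065 (0.98), AC118249.1 (0.98) and Clk1, a kinase of splicing factors (0.98). All had a Spearman rho of 0.98. The genes most like the sum of Gm3106 and Gm16427 were Bmp15, an X-linked growth factor of the oocyte (r = 0.98), Grb10, an imprinted adaptor of insulin signalling (0.97), N4bp2 (0.90), 7420426K07Rik (0.90) and Nlrp5, a maternal effect gene of the subcortical complex (0.90), with rho between 0.90 and 0.97. The pools share library, depth and scaling in these coefficients, and the coefficients serve as a description only. Gm3106 and Gm16427 were also chosen for low levels in XY pools, so that choice favours genes low in XY pools in the ranking by their sum.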

How the data were processed

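The authors aligned stranded paired-end Smart-seq3 reads with HISAT2 to GRCm38 and Gencode (versions are not given in the sources used here) and deposited 5′ UMI counts of 28052 genes and of 79 spike-ins from the ERCC set, plus 1 entry without UMIs. The deposited normalized signal, called normalized CPM, was found to be the counts times 1 constant per pool. The deposited log2 values, from which the authors had regressed out batch effects, were used as levels only. Counts were tested with edgeR 4.0.16 (quasi-likelihood, two-sided, filterByExpr, 1 mean per genotype, 9 pools, ERCC factors, Benjamini-Hochberg adjustment over 10993 genes) and checked on simulated data. DESeq2 1.42.0 and limma 3.58.1 with sva 3.50.0 were alternatives. A call was p below 0.05, as in the study. Sequences came from Gencode vM21 and, for promoters, RefSeq GRCm38.p6, and were aligned with Biopython 1.88. The main fit used no pairing. Deviations of XO and XY pools of the same number correlated (r = 0.805, 0.263 and 0.758). Pools of different number also correlated in some pairs, such as XO2 with XY3 (0.694), and ran opposite in others, such as XO1 with XY3 (−0.806). These values do not establish a pairing by number, and the fit with a block for replicate numbers was an alternative only.

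The 6 genes, the gene lists and the tests were chosen with earlier results of these data known. Named were the 6 genes, 5 genes most like each sum, the 5 other PRAME genes and 5 neighbours per locus of highest level, and others where a count or sequence turned on them, after their values were seen. The entry for XO without a number was taken as XO1.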

Additional observations from a re-analysis of the deposited data

How the results depend on the processing

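Over 17 alternatives, 1 of them chosen after seeing the data (XO1 and XY1 both left out), 0 of Oog1 to Oog4 were called except in limma-voom with 2 surrogate variables, which called 2 for XX against XY and 2 for XY against XO. That model called 20.5% and 19.0% of all tested genes in these comparisons. Of Gm3106 and Gm16427, 1 was called for XX against XO with gene totals alone and 1 without XO1 and XY1, and 0 to 1 when single pools were left out. Gene totals alone called 12.8% of all tested genes for XX against XO, and omission of XO1 and XY1 called 4548 of 11428. Of the other PRAME genes, the main fit called 1 for XX against XO and 3 each for XX against XY and for XY against XO. It called 18.1%, 5.80% and 9.93% of all tested genes. DESeq2 and the replicate block called 0 for XX against XO and gene totals 5, where 2330 of 10989, 2527 of 10993 and 1407 of 10993 genes were called. Surrogate variables called 7, 9 and 13, beside 1571, 2259 and 2087 of 10993 genes. No filter on low counts called 7 for XX against XO and 8 for XY against XO, beside 3953 and 2735 of 28051 genes. Omission of XO1 and XY1 likewise called 7 and 8, beside 4548 and 2806 of 11428 genes. Leaving out 1 pool at a time gave 0 to 5, 1 to 4 and 2 to 8. Over all genes, these fits called 828–4073, 384–1280 and 373–3470 of the 11371–11623 tested.

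Directions of uncalled genes turned often. Oog3 in XY against XO became 0.00517 with DESeq2 size factors, 0.0208 with TMM and 0.28 with gene totals. Oog4 in XX against XY became 0.045, 0.0737 and 0.043 in these, 0.11 with surrogate variables and 0.00144 with the replicate block, and in XX against XO 0.00217 with TMM and 0.26 with gene totals. With gene totals, Gm16427 and Oog2 in XX against XO became 0.12 and 0.22 and Oog4 in XY against XO 0.21. Oog3 in XX against XO became −0.22 with surrogate variables. Without XO1 and XY1, XX against XO became 0.59 for Oog1, 0.57 for Oog2 and 0.41 for Oog4, XX against XY 0.24 for Oog4, and XY against XO 0.10, 0.0129, 0.05 and 0.17 for Oog1 to Oog4.

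With 1 pool left out at a time, XX against XO ranged from −0.87 to 0.59 for Oog1, −0.62 to 0.57 for Oog2, −0.20 to 0.79 for Oog3, −0.54 to 0.41 for Oog4 and −0.0200 to 0.48 for Gm3106. XX against XY ranged from −0.11 to 0.55, −0.0815 to 0.61, −0.0293 to 0.80 and −0.34 to 0.29 for Oog1 to Oog4, and XY against XO from −1.08 to 0.47, −0.91 to 0.40, −0.62 to 0.53 and −0.57 to 0.51. The cause of these changes was not tested. The replicate block changed no call of the 6 genes. Each genotype had 3 pools, and the least counted value of the 6 genes rested on 56 UMIs, so counting error adds to the spread of Gm16427.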
